A study of Mus musculus with 6 samples.

Results

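The receptor loci described here are a pair of genomic windows that hold genes for interferon receptors and receptors of the IL-10 family. The first window, chr16:91350000-91620000 in the mouse build mm9, was set around Ifnar2, Il10rb, Ifnar1 and Ifngr2. The other, chr10:19250000-19500000, was set around Ifngr1, Il22ra2 and Il20ra. All peaks of T-bet chromatin immunoprecipitation sequencing (ChIP-seq) that overlapped a window were taken, which gave 11 of the 8925 peaks in the 3 deposited lists. Of these, 8 came from wild-type (WT) replicate 1, 3 from WT replicate 2 and 0 from the T-bet knockout (KO) library. The windows were chosen by the positions and scores of peaks in these same lists. The values below therefore describe the loci, and no test of their enrichment was made.

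The cells were mouse induced regulatory T cells (iTreg cells), made in culture from naive CD4+ T cells of spleens and lymph nodes. All samples carry the strain label Balb/c, and the mice were 4 to 10 weeks old. Sorted CD4+CD25-CD62L high CD44 low cells were stimulated through plate-bound antibodies to CD3 and CD28, each at 10 µg/ml. Both genotypes were kept for 7 days in human TGF-β1 at 33 ng/ml and IL-2 at 20 ng/ml, so neither is a model of regulatory T cells taken directly from tissue. The labels name the KO cells only as T-bet-KO and give neither the allele nor the number of mice. The 3 peak lists came from 2 WT libraries and 1 KO library, all precipitated with one rabbit serum against T-bet. The KO library serves as the background of the serum. The 3 input libraries were not analysed here.

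T-bet, encoded by Tbx21, is a T-box transcription factor that directs T helper 1 differentiation and is also made by some regulatory T cells. Interferon-γ signals through a receptor of Ifngr1, which binds the ligand, and Ifngr2, which is needed for signalling. Ifnar1 and Ifnar2 form the receptor for type I interferons. Il10rb encodes a chain shared by the receptors for IL-10, IL-22 and type III interferons. Il20ra encodes a chain of receptors for IL-20 subfamily cytokines, and Il22ra2 encodes a secreted protein that binds IL-22 and blocks it. The encoded proteins belong to the class II cytokine receptor family, and those of them that are membrane-bound signal through JAK kinases.

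All 7 genes were found in a RefSeq table for the assembly GRCm38.p6. In that assembly the chromosome 16 genes follow one another as Ifnar2, Il10rb, Ifnar1 and Ifngr2, with Olig1 and Tmem50b as the next protein-coding genes on either side. The chromosome 10 genes follow as Ifngr1, Il22ra2 and Il20ra, between Olig3 and Slc35d3. The peaks are in mm9 and no mm9 annotation was used here. Whether a peak lies in a gene, at a promoter or between genes was therefore not determined, and peaks are given by position only.

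A RefSeq promoter table for GRCm38.p6 held 5 of the 7 genes: Ifnar2, Ifnar1, Ifngr2, Ifngr1 and Il20ra. The 250 bases before each start were searched on both strands for the T-box half-site AGGTGTGA and for its inner letters GGTGTG, which every match of the longer motif contains. None of the 5 held the longer motif, which was present in 1.12% of all 32851 promoters of the same length. The shorter motif was present in 2 of the 5, Ifnar2 and Ifngr2, and in 16.3% of all promoters. In Ifnar2 it lay on the opposite strand (CACACC as printed), 195 to 190 bases before the start, and in Ifngr2 on the printed strand, 140 to 135 bases before it. These 2 sequences are shown because they hold the letters, which are in capitals. Both genes lie on the plus strand of chromosome 16, and each sequence is the 250 bases before the start, 5′ to 3′.
Ifnar2: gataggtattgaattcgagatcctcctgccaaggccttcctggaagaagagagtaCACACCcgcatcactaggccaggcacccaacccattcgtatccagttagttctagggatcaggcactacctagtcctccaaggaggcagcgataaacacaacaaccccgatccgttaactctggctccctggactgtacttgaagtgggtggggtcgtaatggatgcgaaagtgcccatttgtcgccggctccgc
Ifngr2: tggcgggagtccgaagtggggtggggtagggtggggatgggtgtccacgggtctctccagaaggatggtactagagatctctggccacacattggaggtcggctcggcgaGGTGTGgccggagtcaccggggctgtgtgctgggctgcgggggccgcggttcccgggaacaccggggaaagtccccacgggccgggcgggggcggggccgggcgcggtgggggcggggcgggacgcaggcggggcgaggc
A match is a match of letters only, and which promoters the peaks reach was not determined.

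The chromosome 16 window contained a strong site, here a place where both WT lists reported a high-scoring T-bet ChIP-seq peak. In WT replicate 1 its peak ran from 91533214 to 91534106 with a score of 1570. In WT replicate 2 the peak ran from 91533154 to 91534174 with a score of 362. The KO list had no peak in the window. The score is the peak caller's value, deposited by the authors, and its scale is not stated. The lowest scores of the lists were 70.13, 70.10 and 70.35 in WT replicate 1, WT replicate 2 and KO. Within WT replicate 1 the peak ranked 16 of 7996, and within WT replicate 2 it ranked 23 of 851. It was the highest WT replicate 2 peak of the 34 on chromosome 16. In WT replicate 1 it was the third of 307 on that chromosome, after peaks at 57391208 (score 2697) and 11143983 (score 2061), neither of which met a peak of another list. Of the 15 higher WT replicate 1 peaks, 3 recurred in WT replicate 2, and 2 of those 3 met no KO peak.

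This site was also wide. Its WT replicate 1 peak measured 893 bp and its WT replicate 2 peak 1021 bp, against list medians of 175 and 353 bp. Across the 726 pairs of WT replicate 1 and WT replicate 2 peaks that overlapped without a KO peak, no pair had a wider WT replicate 1 peak and 2 had a wider WT replicate 2 peak. The median widths in these pairs were 315 bp in WT replicate 1 and 366 bp in WT replicate 2. The WT replicate 2 peak covered the whole WT replicate 1 peak, as in 40.2% of pairs. The midpoints lay 4.0 bp apart, against a median of 32.0 bp, and 7.99% of pairs lay as close or closer. The replicates thus placed the site at almost the same point, with edges 60 and 68 bp farther out in WT replicate 2.

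A smaller WT replicate 1 peak lay beside the strong site, from 91534808 to 91534965, with a score of 292 and rank 643. The gap between them was 701 bp. It met no peak of WT replicate 2, whose peak at the strong site ended 633 bp before it. Of the 100 WT replicate 1 peaks nearest to it in rank, 39.0% met WT replicate 2 (exact 95% binomial interval 29.4 to 49.3%). A second WT replicate 1 peak within 1 kb was found for 17.4% of the peaks in that list, so such a companion was not rare.

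**Figure D1:**
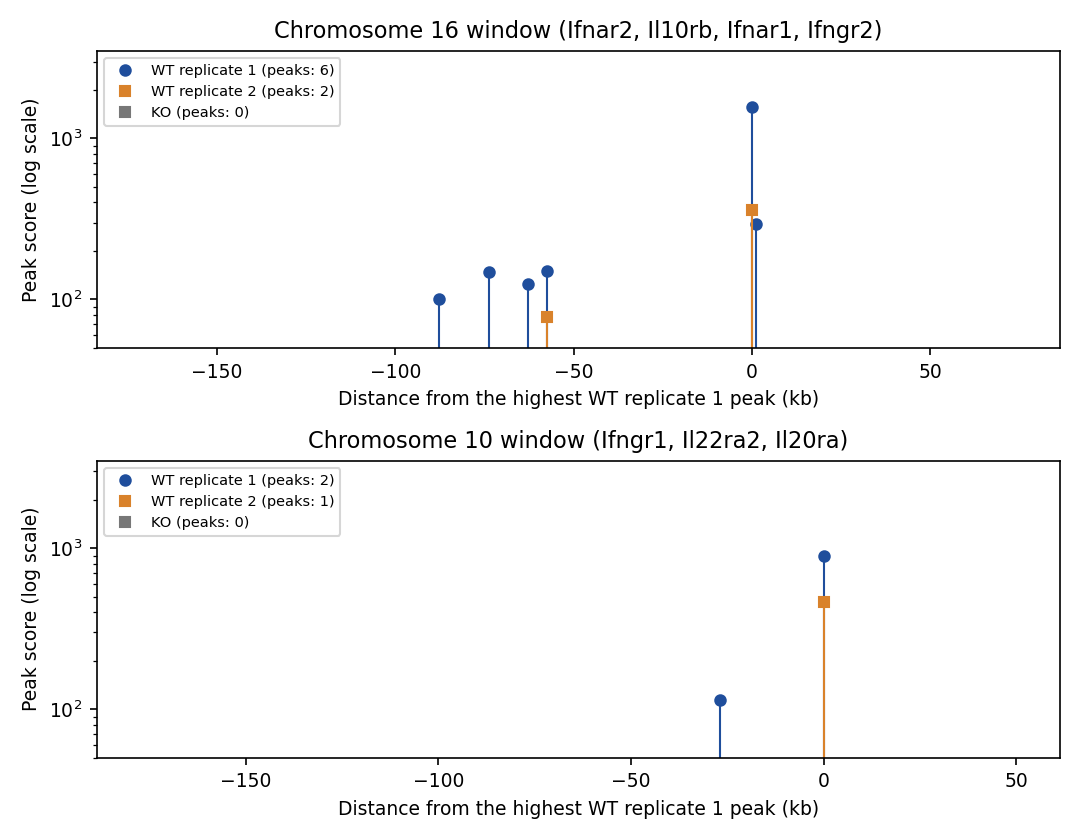
Peak score (log scale) against distance in kb from the midpoint of the highest WT replicate 1 peak, for the chromosome 16 window (top) and the chromosome 10 window (bottom). Each marker is 1 peak of the WT replicate 1 list (circles) or the WT replicate 2 list (squares), and the KO list had 0 peaks in either window. A strong peak of both WT lists stands at 0 in each panel, and all other peaks score 292 or less.

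The remaining 4 WT replicate 1 peaks of the chromosome 16 window lay together, spread over 30.4 kb and 56.8 kb away from the strong site. They ran from 91445933 to 91446139 (score 100.17), from 91459711 to 91459915 (score 147), from 91470810 to 91471045 (score 125) and from 91476074 to 91476374 (score 150). Their ranks, from 2351 to 4510 of 7996, left 29.4 to 56.4% of the list scoring higher; the list median score was 107.66. Only the last of them met a WT replicate 2 peak, from 91476018 to 91476335, with a score of 78.2 and rank 728 of 851. This second shared site scored 1.39 times the list median in WT replicate 1 and 0.725 times the median in WT replicate 2, where 85.4% of peaks scored higher. Among the 726 shared WT replicate 1 peaks its score ranked 545, whereas the strong site ranked 3. Its widths, 301 and 318 bp, were below the medians of 315 and 366 bp for such pairs, and its midpoints were 47.5 bp apart. The peak at 91459711, with nearly the same score and rank 2422, met no WT replicate 2 peak. WT replicate 1 peaks of such ranks seldom recurred: 5 of the 100 (1.64 to 11.3%) nearest in rank to the second shared peak and 7 of the 100 (2.86 to 13.9%) nearest to the peak at 91459711.

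The chromosome 10 window contained 1 strong site and 1 weaker peak. The strong site ran from 19438412 to 19438908 in WT replicate 1 with a score of 898, and from 19438438 to 19438931 in WT replicate 2 with a score of 467. The KO list had no peak in the window. The site ranked 34 of 7996 in WT replicate 1 and 11 of 851 in WT replicate 2. Both lists placed it second on chromosome 10, after a site at 117355536 to 117355992 with scores of 1286 and 615. Its width was nearly equal in the lists, at 497 and 494 bp. Its edges differed by 26 and 23 bp in the same direction, and its midpoints were 24.5 bp apart. The other peak, from 19411639 to 19411840, was reported by WT replicate 1 alone, with a score of 114 and rank 3633. It lay 26.6 kb from the strong site. Of the 100 peaks nearest to it in rank, 7.00% met WT replicate 2.

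**Figure D2:**
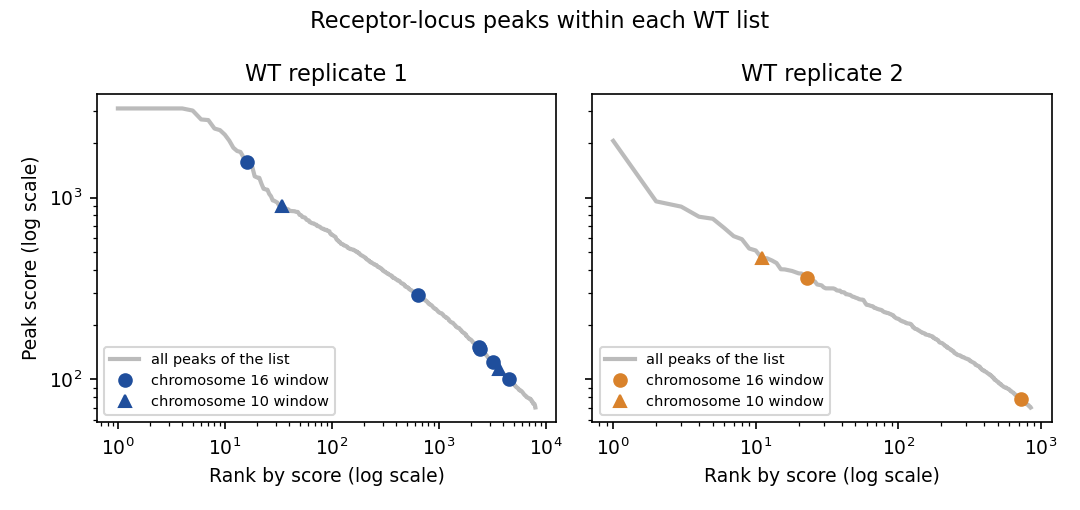
Peak score against rank by score (both log scales) for WT replicate 1 (left) and WT replicate 2 (right); grey lines are all peaks of the list, circles the chromosome 16 window and triangles the chromosome 10 window. The strong sites sit near the top of both lists, at ranks 16 and 34 in WT replicate 1 and 23 and 11 in WT replicate 2, and the order of the 2 sites is reversed between the lists.

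The strong sites of the windows changed places between the replicates. In WT replicate 1 the chromosome 16 site scored 1570 and the chromosome 10 site 898. In WT replicate 2 the chromosome 10 site scored 467 and the chromosome 16 site 362. The ratio of the WT replicate 1 score to the WT replicate 2 score was 4.34 for the chromosome 16 site and 1.92 for both the chromosome 10 site and the second chromosome 16 site. The median ratio over all 726 pairs was 2.07, with quartiles of 1.25 and 3.05. With 1 value per replicate, the order of the strong sites is not established.

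**Figure D3:**
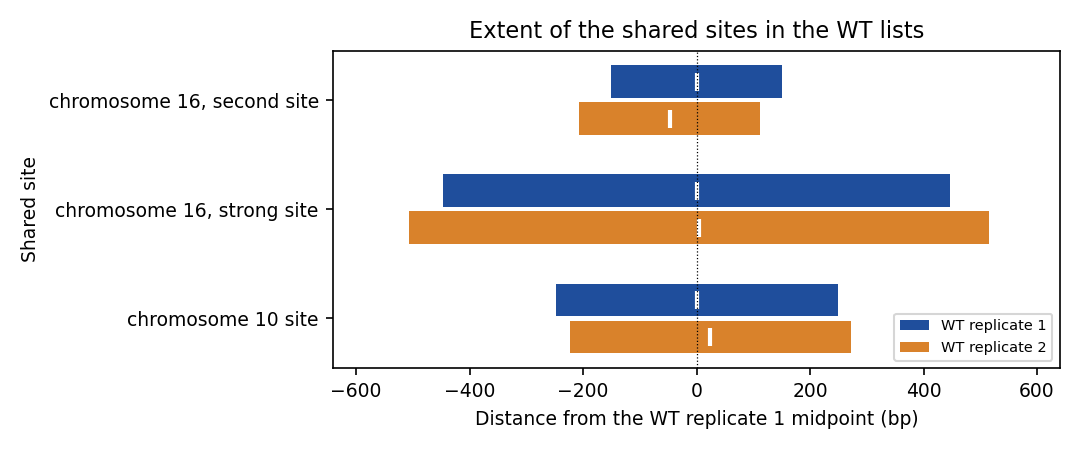
Extent in bp of the 3 shared sites around the WT replicate 1 midpoint (dotted line); upper bars are WT replicate 1 peaks, lower bars WT replicate 2 peaks, and white ticks their midpoints. The strong chromosome 16 site is the widest, at 893 and 1021 bp, and the midpoints of the replicates are 47.5, 4.0 and 24.5 bp apart from top to bottom.

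Over both windows, 3 of the 8 peaks in WT replicate 1 had a counterpart in WT replicate 2, or 37.5% (exact 95% binomial interval 8.52 to 75.5%, counting error only), against 9.50% of the whole list. All 3 also met no KO peak, against 9.08% of the whole list. The windows were chosen by these same peaks and recurrence varies with the score, so nothing is read from the difference. Recurrence was not highest at the very top of the WT replicate 1 list. It was 44.0% for ranks 1 to 100, 74.0% for ranks 101 to 200 and 57.0% for ranks 201 to 300. The 3 shared peaks were those at ranks 16, 34 and 2351. In the other direction, all 3 WT replicate 2 peaks met a WT replicate 1 peak, against 85.4% of that list. Among the 101 highest WT replicate 1 peaks, to which both strong sites belong, 43.0% (33.1 to 53.3%) of the other 100 met WT replicate 2.

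**Figure D4:**
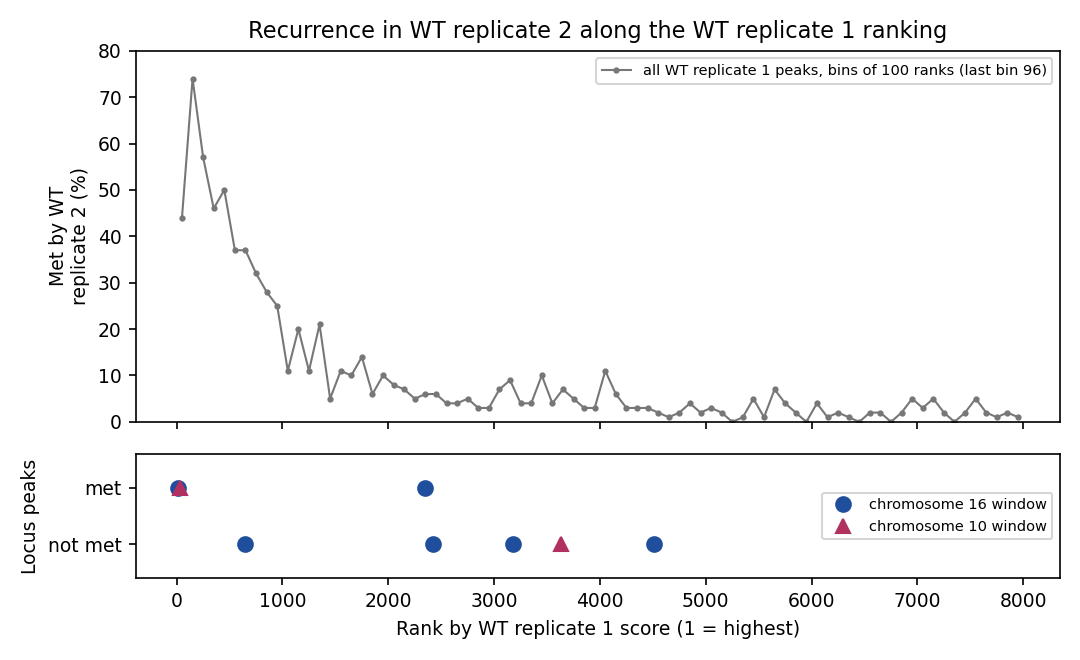
Top, percentage of peaks in WT replicate 1 with a counterpart in WT replicate 2, in bins of 100 ranks by WT replicate 1 score (rank 1 is the highest). Bottom, the 8 WT replicate 1 peaks of the windows at their ranks, placed as met or not met. Of the 3 that were met, 2 lie in the first bin and the third lies at rank 2351. In the first bin 44.0% of peaks recurred, against 74.0% in the next bin.

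None of the 8 WT replicate 1 peaks met a KO peak, against 0.550% of the list, and none of the 3 WT replicate 2 peaks did, against 5.41%. With so few peaks the exact 95% intervals reach 36.9% and 70.8%. The KO list had 78 peaks in all, of which 2 were on chromosome 16 and 3 on chromosome 10. The nearest on chromosome 16 lay 6.63 Mb before the window and the nearest on chromosome 10 lay 20.5 Mb after it. Cut into tiles of 250 kb, the length of the chromosome 10 window, the genome had a KO peak in 0.560% of tiles. A window without a KO peak is thus the usual case, and 0 KO peaks here does not show that the sites are free of background signal. With 1 KO library, WT and KO could not be compared across samples.

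Both windows, placed where peaks were known to lie, held more WT peaks per length than their chromosomes. The counts are small: 6 and 2 peaks on chromosome 16 and 2 and 1 on chromosome 10, in WT replicates 1 and 2. The chromosome 16 window had 2.22 WT replicate 1 peaks per 100 kb (exact 95% Poisson interval 0.816 to 4.84) against 0.313 over chromosome 16, and 0.741 WT replicate 2 peaks per 100 kb (0.0897 to 2.68) against 0.0346. The chromosome 10 window had 0.800 WT replicate 1 peaks per 100 kb (0.0969 to 2.89) against 0.377 over chromosome 10, and 0.400 WT replicate 2 peaks (0.0101 to 2.23) against 0.0493. Of 9755 tiles of 270 kb, 273 held at least the 6 WT replicate 1 peaks of the chromosome 16 window, and 135, or 1.38%, held at least its 2 shared sites. Of 10536 tiles of 250 kb, 16.6% held at least the 2 WT replicate 1 peaks of the chromosome 10 window and 4.83% held a shared site. The windows were placed where peaks were known to lie and the tiles were not, so these shares say how often such counts occur and not how likely they are by chance. For the same reason the Poisson intervals are no test of the window densities against the chromosomes. They also treat peaks as independent, whereas 40.4% of WT replicate 1 peaks had another within 10 kb.

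The nearest WT replicate 1 peaks outside the windows lay 28.0 kb to 1.16 Mb from an edge. The nearest WT replicate 1 peak before the chromosome 16 window ended at 90186036 (score 106), 1.16 Mb from its edge, and the nearest after it began at 91647999 (score 71.4), 28.0 kb away. For WT replicate 2 the nearest before ended at 89849815 (score 157), and the nearest after lay 1.13 Mb away (score 242). The chromosome 16 peaks thus began after an empty stretch of 1.26 Mb in WT replicate 1, a length that 6.47% of the gaps between neighbours in that list reach. The corresponding stretch in WT replicate 2 was 1.63 Mb, which 39.1% of its gaps reach. Before the chromosome 10 window the nearest peaks lay 436 kb away in WT replicate 1 (score 108) and 542 kb away in WT replicate 2 (score 110). After it, both WT lists had the same next site, 220 kb away at 19719718 to 19719985 in WT replicate 1 (score 214) and at 19719636 to 19719883 in WT replicate 2 (score 90.6).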

How the data were processed

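The labels' protocols describe formaldehyde crosslinking for 20 minutes, libraries of 150 to 350 bp and single-end reads of 35 or 50 bp. CASAVA, Bowtie2, MACS 1.4 and mm9 are listed in the submitters' processing notes; settings and peak-calling controls were not given in the sources used here. The deposited lists, 1 per library, hold 5 columns, the last a peak score of unstated scale, which was ranked within a list. Score ratios between replicates are descriptive. Read depth is unknown. Samples were grouped by title, and nothing says whether the WT replicates came from separate cultures. A number opens each deposited list name, equal for replicate 2 and KO and different for replicate 1. What it marks is not stated, and if it is a batch, batch and WT replicate cannot be told apart.

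Starts were converted to count from 1. Peaks were shared where at least 1 bp overlapped. Tiles and densities used each chromosome up to its last peak. All peaks in the windows were accounted for, and the windows, genes and comparisons were chosen with earlier results of these data known. Overlap counting was checked only on simulated peaks, placed either on WT replicate 1 peaks or on an invented chromosome. Near misses and overlaps of 1 bp were not tested. Peaks at other genes of the pathway were not analysed here, for want of an mm9 annotation. Alternatives changed the overlap rule, the score minimum, merging, list length, the KO filter, the replicates and the window borders. Intervals came from scipy 1.17.1 and figures from matplotlib 3.10.9, with numpy 2.4.6 under Python 3.11.15.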

Additional observations from a re-analysis of the deposited data

How the results depend on the processing

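The strong site of each window stayed shared by both WT lists and without a KO peak under every alternative that kept both replicates. The chromosome 16 count of 2 shared sites became 1 with scores of at least 100, which removes the WT replicate 2 peak of the second site (leaving 1 WT replicate 2 peak in the window), and 1 with WT replicate 1 cut to the length of WT replicate 2. Leaving out a WT replicate gave 2 to 6 KO-free peaks on chromosome 16 and 1 to 2 on chromosome 10, since each list then stands alone. The share of WT replicate 1 peaks met by WT replicate 2 ranged from 2 of 8 peaks, with scores of at least 100, to 66.7%, on 3 peaks, with WT replicate 1 cut to the length of WT replicate 2. Windows widened by 50 kb on each side added 1 WT replicate 1 peak on chromosome 16 and none on chromosome 10. The promoter count was 0 of 5 for AGGTGTGA and 2 of 5 for GGTGTG, since the shorter motif has fewer letters to match. No paired analysis was possible because only the WT inputs, not analysed here, repeat the replicate numbers of the WT ChIP libraries, and KO has a single ChIP library. Read depth is unknown, so absence from WT replicate 2 or KO does not show that a site is unbound.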
